A study of Caenorhabditis elegans with 4 samples.

Results

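The peaks described here are JUN-1::GFP binding sites called on the arms of chromosome V, in L1 larvae of the nematode Caenorhabditis elegans. They are the rows of the authors' combined peak list on V whose midpoint lies below 6 Mb (left arm) or above 16.5 Mb (right arm) on genome build WormBase WS180. This rule uses position only and took 501 of the 4277 combined peaks, 337 on the left arm and 164 on the right arm. The stretch of V between the arms, called the centre below, held 899 peaks, and 2877 peaks lay outside V.

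The data came from chromatin immunoprecipitation followed by sequencing (ChIP-seq), with 2 ChIP libraries and 2 input libraries. All 4 libraries came from hermaphrodites of strain OP234, which carry the unc119(ed3) allele and the transgene wgIs234. In wgIs234 the jun-1 gene, T24H10.7, has TY1, EGFP and FLAG tags, and the construct also holds unc119 as its marker. It was introduced by particle bombardment, and the strain was outcrossed 3 times. Larvae were grown at 20 degrees Celsius, and the stage label reads L1 26dC, whose last part was not resolved here. The ChIP used a polyclonal goat antibody against GFP on chromatin of whole larvae, so binding in different tissues cannot be told apart. All animals carried the tag, so peaks that do not depend on JUN-1 cannot be told apart from JUN-1 binding. The lists hold no read counts, and sequencing depth is unknown.

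JUN-1 is related to c-Jun of mammals. There c-Jun, a basic leucine zipper protein, pairs with Fos proteins to form AP-1, a transcription factor known for responses to stress and growth signals. The autosomes of C. elegans are divided into arms, which recombine often and are rich in repeats and in heterochromatin marked by histone H3 lysine 9 methylation, and gene-dense centres that hold more of the conserved genes. Chromosome V is known for large families of nematode genes, among them chemoreceptor and nuclear hormone receptor genes.

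The strongest peak on the left arm was V:1151129-1152090, 962 bp wide and rank 25 of the combined list. Strength is given as −log10 of the authors' q-value, so that a higher value is a stronger peak. Its −log10 q was 92.7 in the combined list, 54.6 in replicate 1 and 92.7 in replicate 2. The second was V:5049255-5050315, with 89.8 in the combined list, 56.4 in replicate 1 and 89.5 in replicate 2. These are the 2 left arm peaks that stood far above the others, since the third, V:5843210-5844901, had 49.4 in the combined list, 29.5 in replicate 1 and 49.3 in replicate 2. It was followed closely by V:4647255-4648640, with 48.9 in the combined list, 29.8 in replicate 1 and 48.9 in replicate 2. The outermost peak of the list on V, V:8109-9221, was also strong. It was the fifth peak of the left arm by strength, with a combined −log10 q of 37.8, and its 1113 bp covered 2 replicate 1 peaks.

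The remaining 5 of the 10 strongest left arm peaks were V:5505037-5505431, V:3977859-3979443, V:5684484-5684933, V:2133332-2134748 and V:773266-773637. Their combined −log10 q ran down to 31.2 at the last of them, and their widths ran between 372 and 1585 bp. Each was found in both replicates, and so were all the other peaks among the 10.

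The right arm had 1 peak that stood apart, V:20773430-20774601, 1172 bp wide and rank 40 of the combined list. Its −log10 q was 79.3 in the combined list, 47.2 in replicate 1 and 79.3 in replicate 2. The next was V:17951076-17951694, with 43.4 in the combined list, 24.1 in replicate 1 and 44.1 in replicate 2. The step between these peaks was thus larger than any below it on this arm. The third, V:18967588-18967989, had 37.3 in the combined list, 24.2 in replicate 1 and 37.3 in replicate 2. The fourth, V:18346033-18346418, had 36.5 in the combined list, 20.4 in replicate 1 and 36.5 in replicate 2.

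Ranks 5 to 10 of the right arm were V:17857749-17858332, V:19529104-19529586, V:16965624-16966019, V:20001077-20001590, V:19642965-19643374 and V:20707721-20708739. Their combined −log10 q ran down to 24.3 at the last. All 10 were found in both replicates, as were the 10 of the left arm. Nearly all peaks of such rank were found in replicate 1. At ranks 1 to 500 the share was 100% in the centre of V and 99.7% outside V. Of the 10 strongest combined peaks of each arm, 9 on the left and 8 on the right were also among the 10 strongest replicate 1 peaks of that arm.

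The left arm carried more peaks per length than the right arm in the combined list. Its 337 peaks gave 56.2 per Mb and the 164 of the right arm gave 37.3 per Mb, a ratio of 1.51 with a 95% exact interval of 1.25 to 1.83 (two-sided exact binomial test, adjusted p = 4.4e-05). In the replicate 1 list the arms held 175 and 100 peaks, or 29.2 per Mb on the left and 22.7 per Mb on the right, and that ratio of 1.28 missed the threshold (exact binomial test, adjusted p = 0.12). In the replicate 2 list they held 333 and 164 peaks, or 55.6 and 37.3 per Mb. Lengths run from the outermost peak edges, at 8109 and 20899407, since chromosome lengths of this build were not used here.

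Peaks were not spread evenly within the arms. The outermost 0.5 Mb of the right arm held 52 of its 164 peaks, or 31.7% (95% exact interval 24.7 to 39.4) on 11.4% of its length. That is 104 peaks per Mb, against 28.7 per Mb in the rest of the right arm. In the replicate 1 list the same stretch held 34 of 100 peaks, or 68 per Mb against 16.9 per Mb in the rest, and in the replicate 2 list it held 52 of 164. This stretch was chosen after the values were seen, so no test is given. In the combined list its peaks had a median −log10 q of 7.78 against 6.66 in the rest of the arm. In the replicate 1 list the medians were 5.97 and 6.02, so the stretch was not stronger there. Of its combined peaks 65.4% were found in replicate 1 against 56.2% in the rest.

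The outermost 0.5 Mb of the left arm did not stand out to this extent, with 37 of 337 peaks, or 74 per Mb against 54.6 per Mb in the rest. The left arm was densest next to the centre. Its window V:5000001-6000000 held 78 combined peaks, 45 in the replicate 1 list and 74 in the replicate 2 list. The windows V:1-1000000 and V:1000001-2000000 followed with 60 combined peaks each. The sparsest whole window of the left arm was V:2000001-3000000, with 41 peaks. On the right arm the whole windows V:17000001-18000000 and V:18000001-19000000 were the sparsest of both arms, with 23 and 28 peaks. The sparsest window of the left arm thus held more peaks than each of the 3 whole windows inside the right arm. The last window of V, which is incomplete, held 64.

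**Figure D1:**
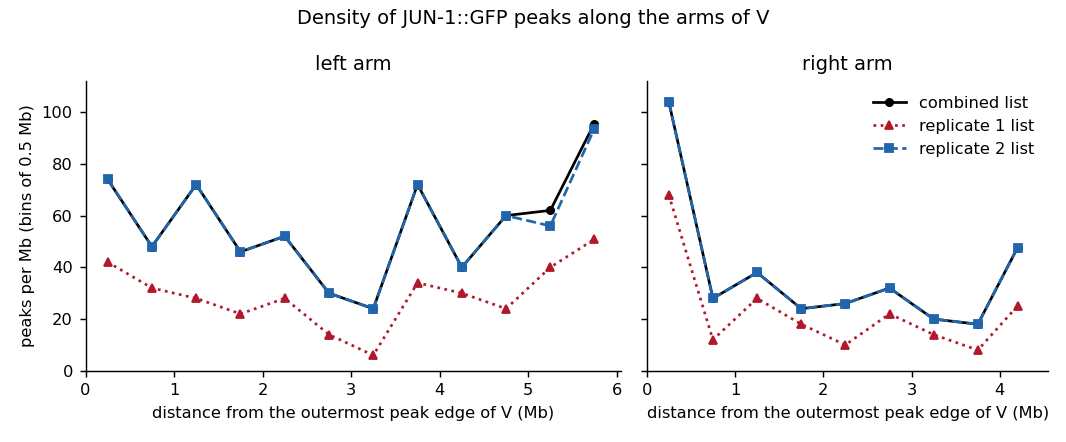
Peaks per Mb in bins of 0.5 Mb, by distance in Mb from the outermost peak edge of V, for the left and the right arm; lines and symbols mark the combined, replicate 1 and replicate 2 lists. The outermost bin of the right arm reaches 104 peaks per Mb in the combined list and 68 in replicate 1, above the other bins of that arm.

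Both arms together were sparser than the centre of V and denser than the ends of the other autosomes. They had 48.2 peaks per Mb against 85.6 in the centre of V, a ratio of 0.56 (95% exact interval 0.50 to 0.63; exact binomial test, adjusted p = 1.1e-24). In the replicate 1 list the densities were 26.5 on the arms and 49.3 in the centre. Against the outer 25% at each end of chromosomes I to IV, which had 28.0 peaks per Mb, the ratio was 1.72 (1.54 to 1.92; exact binomial test, adjusted p = 3.8e-20). Replicate 1 gave 26.5 on the arms and 16.0 in those outer parts. By the same outer 25%, V had 46.0 peaks per Mb, X 45.6, III 34.3, I 29.6, IV 26.4 and II 22.6, as values with no test. These outer parts held 481 of the 1400 peaks of V. They held 222 of 571 on I, 172 of 433 on II, 236 of 542 on III and 230 of 558 on IV. On every autosome they thus held fewer peaks than the middle, which is equally long. On X they held 391 of 773. Counted as clusters of peaks closer than 5000 bp, the arms had 29.1 clusters per Mb, the centre of V 40.6 and the outer parts of I to IV 21.1, and both calls were kept (exact binomial tests, adjusted p = 4.9e-05 for each).

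Spacing followed density. The gap between the end of a peak and the start of the next had a median of 8397 bp on the left arm and 11936 bp on the right arm, and this difference did not pass the threshold (Fisher's exact test on gaps above the pooled median, adjusted p = 0.63, odds ratio 0.84, 95% interval 0.57 to 1.25). Both arms together had a median gap of 8640 bp against 4362 bp in the centre of V (Fisher's exact test, odds ratio 1.64, adjusted p = 4.4e-05). The arm gaps were shorter than those outside V, whose median was 13838 bp (Fisher's exact test, odds ratio 0.66, adjusted p = 0.0001). In the replicate 1 list the medians were 15000 bp on the arms, 9333 bp in the centre of V and 28127 bp outside V. Between the arms the order was turned in that list, with 16860 bp on the left and 14204 bp on the right (Fisher's exact test, odds ratio 1.16, adjusted p = 0.87).

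Many arm peaks stood in short runs. With gaps under 5000 bp joined, 222 of 337 left arm peaks, or 65.9%, and 87 of 164 right arm peaks, or 53.0%, had a neighbour in their run, against 74.5% in the centre of V. Runs of 5 or more peaks numbered 6 on the left arm, 4 on the right arm and 38 in the centre. The longest stretch without a combined peak was V:2327439-2600543 on the left arm, 273105 bp, and V:19230718-19410679 on the right arm, 179962 bp. Neither replicate list had a peak inside these stretches.

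Of the runs on the arms, the one with the most peaks lay on the right arm, in its dense outermost stretch. It spanned V:20407015-20420527, 13513 bp with 10 peaks, of which 7 were found in replicate 1. Its strongest member, V:20414142-20414581, had a −log10 q of 19.5 in the combined list, 9.31 in replicate 1 and 19.5 in replicate 2. The next, V:20419594-20420046, had 17.1 in the combined list, 9.56 in replicate 1 and 17.1 in replicate 2. None of the run's peaks was among the 10 strongest of the arm, and its weakest, V:20418942-20419046, had 3.79 and no replicate 1 peak.

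On the left arm the fullest run was V:1146932-1158675, 11744 bp with 8 peaks, of which 4 were found in replicate 1. It surrounds the strongest peak of the arm. The second peak of the run by strength was V:1153869-1155206, 1338 bp wide, with 26.0 in the combined list, 15.5 in replicate 1 and 26.0 in replicate 2. The run also holds the strongest left arm peak without a replicate 1 peak, V:1149782-1150707, at rank 967 with a combined −log10 q of 12.2. In replicate 2 that interval covered 2 peaks, of which the stronger had 6.69.

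**Figure D2:**
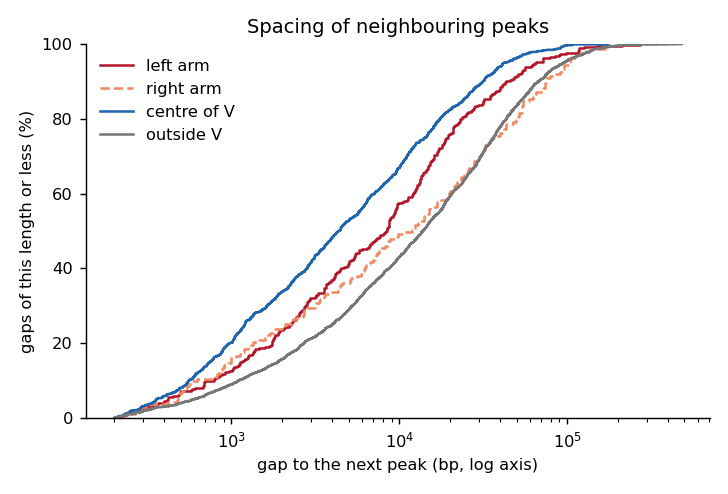
Cumulative share of gaps (%) against the gap to the next peak in bp on a log axis, for the left arm, the right arm, the centre of V and all peaks outside V. The median gaps of the arms, 8397 bp on the left and 11936 bp on the right, lie between those of the centre of V, 4362 bp, and of the peaks outside V, 13838 bp, and the right arm curve meets that of the peaks outside V among the long gaps.

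Arm peaks were narrow. Median width was 279 bp on the left arm and 305 bp on the right arm, and 288 bp over both, against 382 bp outside V. Of the arm peaks 28.7% were wider than the pooled median of 367 bp, against 53.5% of the peaks outside V (Fisher's exact test, odds ratio 0.35, 95% interval 0.28 to 0.43, adjusted p = 3.4e-24). The medians of the other chromosomes ran from 369.5 bp on III to 395 bp on II. In the replicate 1 list the medians were 292 bp on the arms and 387 bp outside V.

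Weaker peaks are narrower, so widths were also compared within 10 strata of q rank in the combined list, from strongest to weakest. At equal rank 103 of the 501 arm peaks were wider than the median of their stratum, where the rates outside V gave 275.9 (exact Cochran-Mantel-Haenszel test, odds ratio 0.22, adjusted p = 1.8e-46). The difference was present from the first stratum, with medians of 601.5 bp on the arms and 687 bp outside V, to the last, with 168 bp and 290 bp. The gap in width was thus larger in the last stratum than in the first, but it did not grow steadily between them. The second stratum had medians of 435 bp and 491 bp, as values with no test. By the median, strength did not separate the arms from the peaks outside V. Median −log10 q was 6.67 on the arms and 6.51 outside V (Fisher's exact test, odds ratio 1.03, 95% interval 0.85 to 1.26, adjusted p = 0.84). The upper values were lower on the arms, with a 90th percentile of 18.6 against 21.5, as values with no test. Among the stronger 50% of the combined list the medians were 10.2 and 11.4 (Fisher's exact test, odds ratio 0.73, adjusted p = 0.075).

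The centre of V had narrow peaks too. Median width was 288 bp on the arms and 280 bp in the centre, a difference that did not pass the threshold (Fisher's exact test, odds ratio 1.15, 95% interval 0.92 to 1.44, adjusted p = 0.41). At equal rank the arm peaks were the wider ones, with 282 above the median of their stratum where the rates in the centre gave 227.8 (exact Cochran-Mantel-Haenszel test, odds ratio 1.52, adjusted p = 0.00056). That call was lost among the stronger 50% of the combined list (odds ratio 1.14, exact Cochran-Mantel-Haenszel test, adjusted p = 0.70). Peaks under 100 bp made up 4.39% of the arm peaks (95% exact interval 2.77 to 6.57), 8.01% of the peaks in the centre (6.32 to 9.98) and 0.904% of those outside V (0.591 to 1.32). Between the arms, 46.6% of left and 56.7% of right arm peaks were wider than their pooled median of 288 bp (Fisher's exact test, odds ratio 0.67, adjusted p = 0.087). With the replicate 2 list in place of the combined list this difference passed (medians 271 and 317.5 bp, Fisher's exact test, odds ratio 0.57, adjusted p = 0.011), and in the replicate 1 list the medians were 288 and 297 bp (Fisher's exact test, odds ratio 0.94, adjusted p = 0.98).

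**Figure D3:**
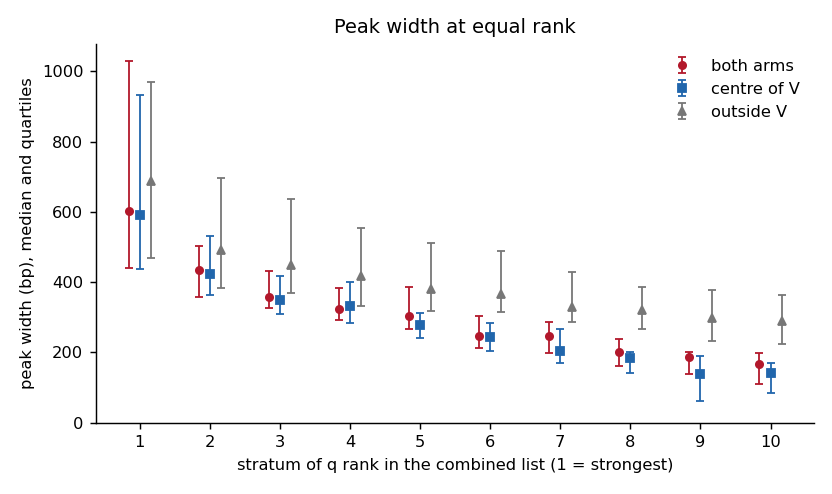
Peak width in bp in 10 strata of q rank in the combined list, from strongest (1) to weakest (10), for both arms, the centre of V and the peaks outside V; points are medians and bars run between the quartiles. Arm medians lie below those outside V in every stratum, at 168 bp against 290 bp in the last.

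The extremes of width differed in strength. The widest left arm peak was V:723898-725989, 2092 bp, with a −log10 q of 23.8 in the combined list, and replicate 1 held a peak of 600 bp inside it. The widest right arm peak was V:19049097-19051767, 2671 bp, with 18.8, and it covered 2 replicate 1 peaks. The narrowest were V:4857881-4857881, a single base with 3.44, and V:17617010-17617014, 5 bp with 3.86, and neither was found in replicate 1. Peaks of 700 bp or more numbered 23 of 337 on the left arm and 5 of 164 on the right arm. Together these made up 5.59% of arm peaks (95% exact interval 3.75 to 7.98). Such peaks made up 5.78% in the centre of V (4.35 to 7.52) and 13.6% outside V (12.3 to 14.9).

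The arms did not differ detectably in strength. Median −log10 q was 6.44 on the left arm and 6.83 on the right arm (Fisher's exact test, odds ratio 0.86, 95% interval 0.58 to 1.27, adjusted p = 0.67). It was 6.67 over both arms and 6.86 in the centre of V (Fisher's exact test, odds ratio 0.96, 95% interval 0.77 to 1.20, adjusted p = 0.84). Among the 100 strongest combined peaks 4 lay on the left arm, 1 on the right arm, 17 in the centre of V and 78 outside V. Among the 500 strongest, 27 lay on the left arm and 21 on the right arm, and among the 1000 strongest, 68 and 35. Both arms together thus held 5 of the 100, 48 of the 500 and 103 of the 1000 strongest peaks. Their share of the whole combined list was 11.7%, and that of the peaks outside V was 67.3%. Both arms together were thus under-represented at the top of the list, as values with no test. Singly, the left arm held 7.88% of the whole combined list and the right arm 3.83%. Among the 500 strongest only the left arm was below its share.

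At the left boundary V:5963770-5964002, with a −log10 q of 3.81, and V:5991471-5991883, with 12.7, were the last peaks inside the arm. The strong peak V:6000182-6000876, with 86.3 and rank 33, fell just outside. It was followed outside by V:6001442-6001606 with 4.46. At the right boundary V:16506704-16506951 with 3.87 and V:16537955-16538361 with 9.76 fell inside, and V:16494362-16494591 with 4.69 and V:16499053-16499293 with 6.89 outside. All 24 tests stayed on their side of the threshold when the arms were taken as the outer 25% of V at each end.

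Recovery asks how many combined peaks overlapped a peak of a replicate list by at least 1 bp. In replicate 1 this held for 268 of 501 arm peaks, or 53.5% (95% exact interval 49.0 to 57.9), where the share of all combined peaks was 54.3%. The share was 50.7% on the left arm (45.3 to 56.2) and 59.1% on the right arm (51.2 to 66.7), a difference that did not pass the threshold (Fisher's exact test, odds ratio 0.71, 95% interval 0.48 to 1.06, adjusted p = 0.19). At equal rank it did not pass either (exact Cochran-Mantel-Haenszel test, odds ratio 0.60, adjusted p = 0.26). The centre of V gave 55.3% and the peaks outside V 54.2% (Fisher's exact tests, odds ratios 0.93 and 0.97, 95% intervals 0.74 to 1.17 and 0.80 to 1.18, adjusted p = 0.76 and 0.84).

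At equal rank, recovery on the arms was 53.5% where the rates in the centre of V gave 52.5% and those outside V gave 54.1% (exact Cochran-Mantel-Haenszel tests, odds ratios 1.10 and 0.94, adjusted p = 0.80 and 0.84). The peaks outside V include chromosome I, where 37.8% of the combined peaks were found in replicate 1, so leaving it out raises the share outside V by construction. Without chromosome I the shares were 53.5% on the arms and 58.2% outside V, which did not pass the threshold (Fisher's exact test, odds ratio 0.82, adjusted p = 0.10). At equal rank the difference then passed (exact Cochran-Mantel-Haenszel test, odds ratio 0.59, adjusted p = 0.0035).

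Whether an arm peak was found again went with its strength, as it did in the centre of V and outside V. All 48 arm peaks among ranks 1 to 500 were found, and 53 of 55 at ranks 501 to 1000. All 61 at ranks 1001 to 1500 were found as well, and 57 of 69 at ranks 1501 to 2000. Recovery then dropped to 40 of 114 at ranks 2001 to 3000 and to 9 of 154 beyond rank 3000. These last 2 shares were 35.1% and 5.84% on the arms. They were 39.2% and 5.58% in the centre of V, and 39.6% and 6.19% outside V. At ranks 1 to 500, 100% of the peaks in the centre of V and 99.7% of those outside V were found. At ranks 501 to 1000 the shares were 96.4% on the arms, 99.1% in the centre of V and 98.5% outside V. In the same order they were 100%, 91.7% and 93.9% at ranks 1001 to 1500. At ranks 1501 to 2000 they were 82.6%, 73.1% and 80.1%. None of these differences within a class was tested. Arm peaks found in replicate 1 had a median width of 352 bp and a median −log10 q of 9.91, and those not found had 202 bp and 4.46. The strongest right arm peak without a replicate 1 peak was V:20063883-20064129, 247 bp wide, at rank 1633 with 8.11. The weakest peak that was found was V:3445617-3445804 with 3.59 on the left arm, and on the right arm it was V:19533559-19533798 with 4.51.

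**Figure D4:**
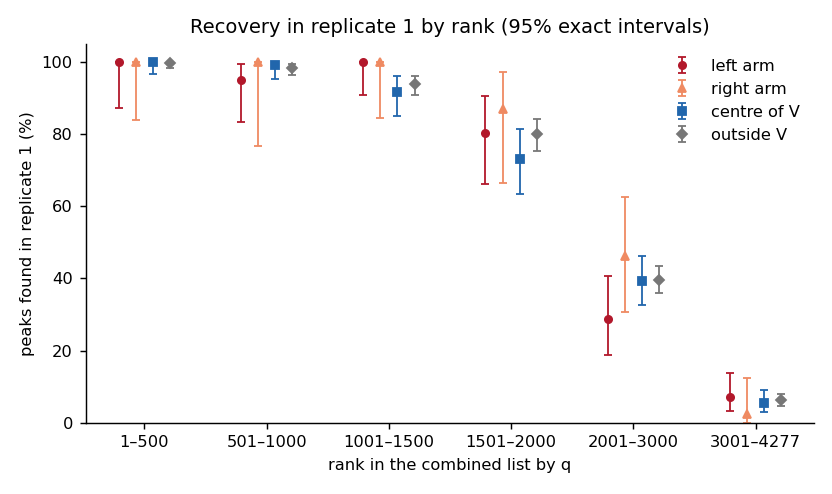
Share of combined peaks found in replicate 1 (%) by class of rank in the combined list, for the left arm, the right arm, the centre of V and the peaks outside V; bars are 95% exact intervals, which cover counting error only. All arm peaks of ranks 1 to 500 were found, and few beyond rank 3000 were, with intervals of the 4 regions overlapping in each class.

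Where an arm peak was shared, replicate 1 nearly always gave it the weaker value, as it did elsewhere. Shared here means that a combined peak overlapped a single peak of each replicate, and no other combined peak shared those. Of such peaks 471 of 477 in the centre of V and 1514 of 1539 outside V had a lower −log10 q in replicate 1. On the arms this held for 259 of 261. The medians were 6.01 in replicate 1 and 9.69 in replicate 2, and the median log2 ratio, replicate 1 over replicate 2, was -0.67 on both the left and the right arm (Fisher's exact test on values above the pooled median, adjusted p = 1, odds ratio 0.99, 95% interval 0.58 to 1.69). In the centre of V the median log2 ratio was -0.74, and the difference from the arms missed the threshold (Fisher's exact test, odds ratio 1.45, adjusted p = 0.056). It passed among the stronger 50% of the combined list (Fisher's exact test, odds ratio 1.64, adjusted p = 0.015). Outside V the median was -0.70 (Fisher's exact test, odds ratio 1.16, adjusted p = 0.49). Depth, which is unknown, enters each q-value, and its part in these ratios was not tested.

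The order of strengths was alike in both replicates. Across the 261 shared arm peaks Spearman's rho of −log10 q was 0.89 and Pearson's r was 0.98, and rho of width was 0.78. These are descriptions across peaks of the same 2 libraries. Replicate 1 peaks were narrower at 221 of the 261, with median widths of 290 bp in replicate 1 and 348 bp in replicate 2. In the centre of V they were narrower at 408 of 477 shared peaks.

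**Figure D5:**
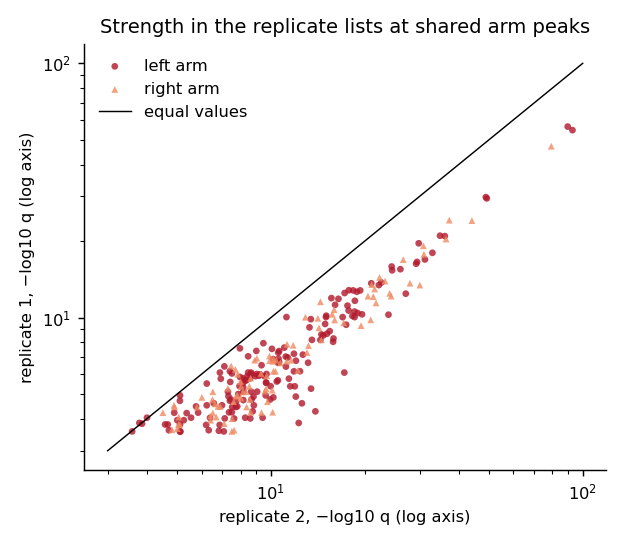
Strength (−log10 q) at 261 shared arm peaks in replicate 1 (vertical) and replicate 2 (horizontal), both on log axes, with left arm peaks as circles and right arm peaks as triangles; the line marks equal values. All but 2 points lie below the line, and both arms follow the same band.

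Replicate 2 is not an independent check of the combined list. Of the arm peaks 492 of 501, or 98.2%, overlapped a replicate 2 peak, where the share of all combined peaks was 99.4%. In 340 of them, or 67.9% (95% exact interval 63.6 to 71.9), all of start, end and q matched a replicate 2 peak exactly, below the 83.6% of the whole combined list. The share was 77.1% in the centre of V and 88.3% outside V. The 161 arm peaks that differed were exactly the 60, 78 and 23 peaks of the windows V:1000001-2000000, V:5000001-6000000 and V:17000001-18000000, where 0 peaks matched, and every other arm peak matched. The difference in this share between the left arm, 59.1%, and the right arm, 86.0%, therefore comes down to those 3 windows. The centre of V also had such windows. In V:11000001-12000000 1 of 107 combined peaks matched exactly, and in V:13000001-14000000 0 of 100 did.

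In the other direction nearly every replicate peak on the arms was in the combined list. On the left arm this held for all 175 replicate 1 peaks and 330 of 333 replicate 2 peaks. On the right arm it held for 99 of 100 replicate 1 peaks and 162 of 164 replicate 2 peaks. The single replicate 1 peak without a combined peak was V:19672430-19672620, 191 bp wide with a −log10 q of 3.96. No strong replicate peak was thus missing from the combined list on the arms.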

How the data were processed

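The authors called peaks with PeakSeq, per the source column of the lists, on WormBase WS180, per the file headers. Each deposited peak has 1 q-value, and −log10 q was computed from these deposited q-values. How the combined list was made, the use of the inputs, the filters, the aligner and the PeakSeq version are not given in the sources used. Input libraries entered no comparison. The gene table at hand belongs to another assembly, so genes, exons, sequences and motifs at these peaks were not analysed here.

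All 24 tests were exact tests on counts, two-sided, and adjusted together by the Benjamini-Hochberg method at 0.05. Widths, strengths and gaps were tested as counts above the pooled median, and equal rank means 10 strata of q rank. Neighbouring peaks depend on each other, so p-values over peaks are too small. The labels do not say whether the replicates are separate cultures. Exact (Clopper-Pearson) intervals cover counting error only.

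The arms, comparisons and tests were chosen with earlier results of these data known. Named peaks are the 10 strongest of each arm, the widest and narrowest, the strongest without a replicate 1 peak, the fullest run, the densest and sparsest windows and those at each boundary. The weakest peaks found in replicate 1 were named after their values were seen. The scripts were tested on simulated data. Computations used Python 3.11.15, numpy 2.4.6, scipy 1.17.1, pandas 2.3.3 and matplotlib 3.10.9.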

Additional observations from a re-analysis of the deposited data

How the results depend on the processing

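Of 113 alternatives to the 24 tests, 108 kept the side of the threshold, and in none was a called direction reversed. In 11 of the 108 the ratio crossed 1 without passing the threshold on either side. The left arm to right arm density ratio lay between 1.28 and 1.49 in the lists of single replicates and lost its call in replicate 1. The left to right odds ratio of width lay between 0.57 and 0.94 in those lists and passed the threshold in replicate 2. Among the stronger 50% of the combined list the width of arm peaks against the centre of V at equal rank gave an odds ratio of 1.14 and was no longer called, and the strength ratio of the replicates gave 1.64 and was called. Recovery at equal rank against peaks outside V gave 0.59, and was called, without chromosome I, while recovery without regard to rank gave 0.82 there and was not. The cause of these changes was not tested. By construction the top 50% holds fewer peaks, and the peaks outside V without chromosome I are found more often. The replicate 2 list nearly repeats the combined one, so its values are no separate support. No paired analysis was possible because only ChIP libraries have peak lists here, and the inputs with the same replicate numbers have none. Since depth is unknown, peaks absent from replicate 1 may lie below its detection limit, which was not tested.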

Other observations

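The smallest gap between neighbouring peaks was 200 bp in each of the 3 lists, and on the arms it was 210 bp in the combined list. How the caller joined nearby intervals is not given in the sources used here. Of the 501 arm peaks 9, or 1.80%, overlapped no peak of either replicate, 8 on the left arm and 1 on the right arm. The share was 0.779% in the centre of V and 0.313% outside V. All 9 lay in the 3 windows of the arms where no combined peak matched replicate 2 exactly. The strongest of these, chosen after the values were seen, was V:1476820-1476994, 175 bp wide, with a −log10 q of 4.46 in the combined list.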
